A study of Mus musculus with 5 samples.

Results

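Small heat shock proteins are chaperones that share a conserved alpha-crystallin domain, assemble into oligomers and hold unfolding proteins in a soluble state without using ATP. Heat shock factor 1 (HSF1) drives transcription of some of them under stress, while others are kept at a steady level in muscle, lens and glia. In the brain, HSPB1 (HSP27) and alpha-B crystallin are the members best known from injury and disease. The genes described here are the 8 rows of the deposited table whose symbol is Hspb1, Hspb2, Hspb3, Hspb6, Hspb7, Hspb8, Hspb11 or Cryab, out of 51912 annotated genes. They were chosen by family name, with earlier results of these data known, and all 8 had an adjusted p. The choice by name does not show that each encoded protein, that of Hspb11 in particular, has the alpha-crystallin domain. Cryaa, Hspb9 and Odf1, alpha-crystallin domain genes outside the 8, were looked up as well. They had deposited means of 1.11, 0.177 and 0.961, below the level at which the authors' table gave an adjusted p.

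RNA was sequenced from C57BL/6 mice, with 2 libraries from sham-operated animals and 3 from animals with a stroke, in a study of TRIM9, a brain-enriched ubiquitin ligase. Under ketamine and xylazine, the middle cerebral artery was occluded for 30 minutes with a coated filament, and mice with a drop in cerebral blood flow of at least 80% were kept. The labels give the stroke protocol for both groups and do not describe the sham operation separately. No engineered allele is named in the labels of either group, and motor deficits were scored after 24 hours. The sources used here do not give the tissue, the time of sampling, the age and sex of the mice or the number of mice behind each library. The p-values therefore measure the spread between these 5 libraries, which may be technical in part.

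The authors' deposited table held a mean, a fold change and a test for each gene, without values per library. Whole reads per library were recovered from those 3 numbers for all 8 members, and are given as normalized reads, that is reads divided by the library's size factor. The size factors, a measure of relative depth, were 1.16, 1.13 and 1.12 for stroke libraries A, B and C and 0.945 and 0.734 for the deeper and the shallower sham library. These names follow the size factors and could not be tied to the replicate numbers in the labels. Fold changes are stroke over sham on the log2 scale, from the authors' deposited table, and a gene was called when its adjusted p there was under 0.05.

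The 2 sham libraries stood apart from each other. Markers of choroid plexus and ependyma summed over 7 genes to 1391 normalized reads for the deeper sham library, to 234 for the shallower one, and to between 298 and 386 for the stroke libraries. Neuronal markers such as Snap25 (mean 65803) and astrocyte markers such as Slc1a2 (mean 102016) were abundant. Member fold changes that moved with the choice of sham library are given below with either one left out.

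Of the 8 members, Hspb1 rose after stroke, by 6.05-fold (log2 fold change 2.60, SE 0.48, adjusted p = 4.51e-05 by the authors' DESeq2 Wald test, 95% interval 3.15-fold to 11.6-fold). The other 7 members did not pass the test, and none was called lower. Over all 17420 genes tested, 1.56% were called, 0.775% higher and 0.786% lower. At an unadjusted p under 0.05 the count over the members was still 1, and over all tested genes 843 were higher and 986 lower. Fold changes were positive for 6 members and negative for 2, with a median of 0.44 on the log2 scale against -0.02 over all tested genes. All 3 stroke libraries lay above both sham libraries for 4 members, Hspb1, Hspb2, Hspb3 and Hspb7, and below both for 1, Hspb11. Among the 9743 genes with recovered reads, 10.7% lay above in this way and 15.3% below.

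**Figure D1:**
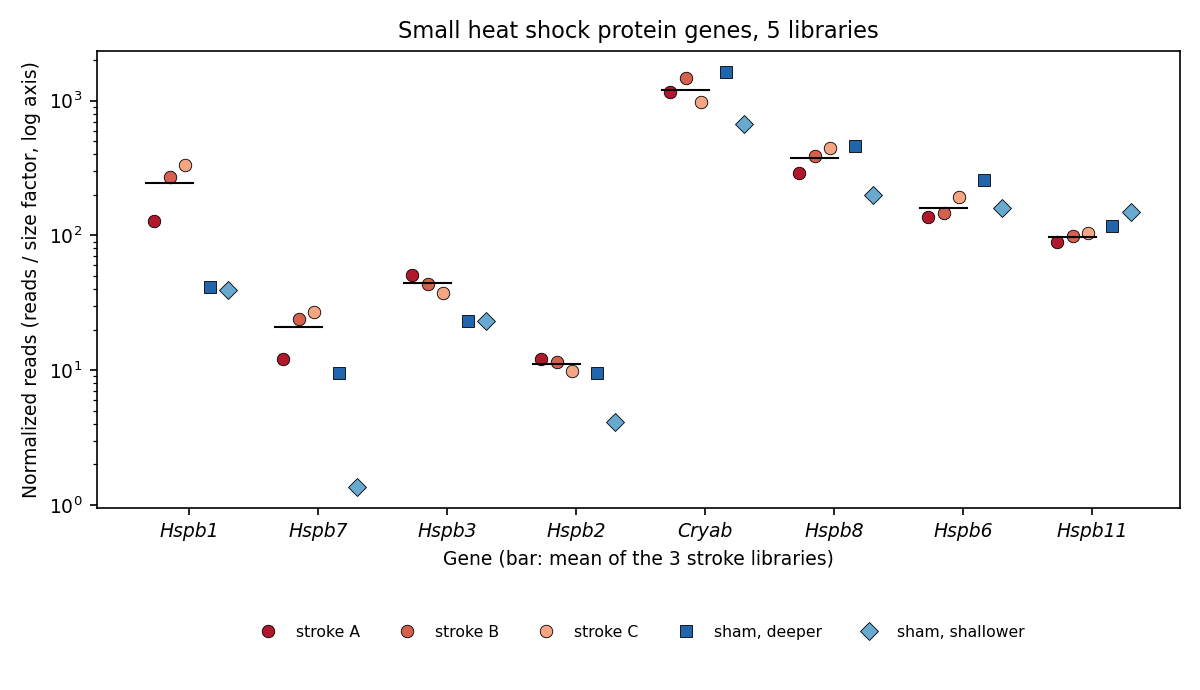
Normalized reads (reads divided by size factor, log axis) of the 8 members in each of the 3 stroke and 2 sham libraries, with a bar at the mean of the stroke libraries. Hspb1 lies between 128 and 332 in stroke and near 40 in both sham libraries, while the Cryab, Hspb8 and Hspb6 values of the 2 groups overlap.

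Hspb1 encodes HSP27, which binds unfolding proteins and actin filaments and is phosphorylated by kinases of the p38 pathway. Hspb1 (ENSMUSG00000004951) lies at chr5:135887919-135889563 on the plus strand of GRCm38, with 1031 exonic bases in 2 exon blocks. It had 128, 273 and 332 normalized reads in stroke libraries A, B and C (mean 244 ± 105, SD, n = 3), and 41.3 and 39.5 in the deeper and the shallower sham library. Both sham values were nearly the same, and the lowest stroke value, in library A, was still well above them. Behind these values stood 148, 309 and 371 reads in stroke and 39 and 29 reads in sham.

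The stroke libraries differed among themselves more for Hspb1 than for most genes of its level. The highest stroke value was 2.60 times the lowest, a wider ratio than in 98.3% of 1970 genes whose mean lay within 1.5-fold of that of Hspb1. The sham values differed by 1.04 times. Hspb1 ranked 26th by p among the genes tested, and a test against a change of up to 1.5-fold also passed (adjusted p = 0.0240, from the deposited fold change and SE), which it did for 0.155% of all genes tested.

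The call for Hspb1 rested on the authors' test. With limma on log2 of the recovered normalized reads plus 1, the Hspb1 fold change was 2.46 (SE 0.42). Its unadjusted p was 0.000477 and its adjusted p was 0.353, in a fit that called 1 of 9743 genes, Atf3. Of the 5 fits that leave out 1 library, Hspb1 passed only in the one without the deeper sham library (adjusted p = 0.0179), which called 689 genes higher and 1072 lower. Without the shallower sham library the Hspb1 log2 fold change was 2.43. Its adjusted p was 0.560, 0.9997 and 0.807 without stroke library A, B and C, in limma fits that called 0 genes. The unadjusted p of Hspb1 in these fits was 0.000115, 0.00253 and 0.00265 in that order.

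The sequence upstream of Hspb1 is shown because HSF1 binds inverted repeats of the 5-base unit NGAAN, and Hspb1 is a known HSF1 target. The 250 bases before its RefSeq start (GRCm38.p6, chr5:135887669-135887918, plus strand, 5′ to 3′) hold 2 matches to GAANNTTC, in capitals.

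Hspb1: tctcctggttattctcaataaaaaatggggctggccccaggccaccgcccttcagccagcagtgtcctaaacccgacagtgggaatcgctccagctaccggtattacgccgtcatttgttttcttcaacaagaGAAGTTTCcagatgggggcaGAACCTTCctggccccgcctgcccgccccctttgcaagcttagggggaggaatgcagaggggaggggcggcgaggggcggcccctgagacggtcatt

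The matches begin 117 and 97 bases before the start. GAANNTTC reads the same on both strands. It was searched in RefSeq windows of 300 bases, 250 before and 50 after each start, where 7.86% of 32851 promoters hold at least 1 match and 0.344% hold at least 2. An entry was found for 6 of the 8 members, with 2 promoters for Hspb6, and none for Hspb2 and Cryab. At least 1 match was present for Hspb1, Hspb3, Hspb6 and Hspb8, in 4 of the members' 7 promoters, and no match in the windows of Hspb7 and Hspb11. The 30-base stretches below show the single match of the other members, in capitals, for comparison with Hspb1.

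Hspb8: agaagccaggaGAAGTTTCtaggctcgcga

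Hspb6: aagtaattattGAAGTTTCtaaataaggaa

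Hspb3: ctccccgaatgGAATTTTCaggcagaggga

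The Hspb8 match begins at base 3 after the start, the Hspb6 match 120 bases before the start of its second promoter, and the Hspb3 match 224 bases before its start. These windows lie at chr5:116422815-116423114 (minus strand), chr7:30553051-30553350 (plus strand) and chr13:113663627-113663926 (minus strand). The letters GAAGTTTC were thus found upstream of Hspb1, which rose, and in the windows of Hspb6 and Hspb8, which were not called. The inverse form TTCNNGAA, held by 8.52% of all promoters, and runs of 3 alternating GAA and TTC units at the same spacing, held by 0.603%, were not found in the members' windows. In the list of HSF1 targets, 9 of 17 genes with an entry held GAANNTTC, in 10 of 23 promoters. Overlapping windows, those of Hspd1 and Hspe1 and those of the 2 Hsph1 promoters, each count a match that they share. A match in letters is a description and not a measured site.

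Among the HSF1 targets and chaperones, a list of 20 genes, 4 were called higher and 0 lower, and 19 had a positive fold change, with a median of 0.81. At an unadjusted p under 0.05, 13 were higher and 0 lower, against 843 and 986 of the 17420 genes tested. The called genes were Hspa1b (5.98, SE 0.29) and Hspa1a (5.60, SE 0.40), near-identical HSP70 genes whose reads the counting could split, the nucleotide exchange factor Hsph1 (1.60, SE 0.30) and the HSP40 cochaperone Dnajb1 (1.47, SE 0.30). The fold change of Hspb1 thus lay below those of the 2 inducible HSP70 genes and above those of the other called genes, without a test of these differences. Of the uncalled genes with the highest means, Hspa8, the constitutive HSP70, had 1.27 (SE 0.40, adjusted p = 0.0842), Hsp90aa1 had 1.07 (adjusted p = 0.299) and Hsp90ab1 had 0.44 (adjusted p = 0.289). Hspe1, the mitochondrial cochaperonin, had 467, 572 and 849 normalized reads in stroke and 186 and 413 in sham. Its stroke values lay above both sham values, and it was not called (1.07, SE 0.41, adjusted p = 0.215).

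The heat shock factor list held 6 tested genes, Hsf1 to Hsf5 and the factor-binding protein gene Hsbp1, and none was called in either direction, with 0 at an unadjusted p under 0.05 and a median of -0.01. Hsf1 had 511, 515 and 557 normalized reads in stroke and 728 and 331 in sham, so its sham values lay on both sides of the stroke values. The values of Hsf2, another factor that binds these repeats, were 743, 680 and 851 in stroke and 563 and 1176 in sham.

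**Figure D2:**
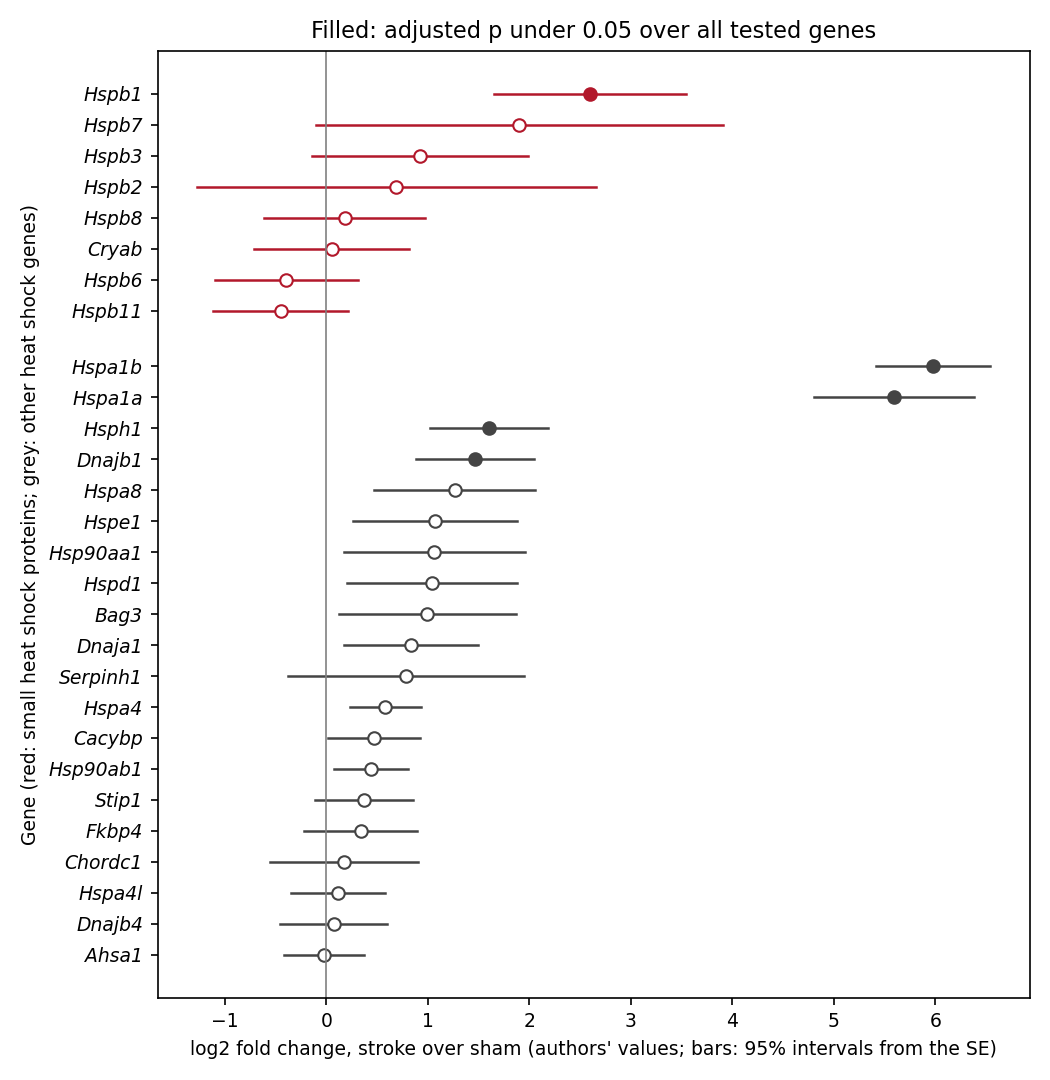
Log2 fold changes of stroke over sham from the authors' deposited table, with 95% intervals from the standard error, for the 8 members and other heat shock genes, filled where the adjusted p was under 0.05. Hspb1 at 2.60 is the only filled member, and the intervals of the other 7 members include 0.

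Of the p38 pathway that leads to HSPB1 phosphorylation, 5 genes were tested, those of p38 (Mapk14, Mapk11) and of its MAPKAP kinases. None was called, and 1, Mapkapk2, had an unadjusted p under 0.05. Mapkapk2, which encodes the main kinase of HSP27, had 891, 778 and 1097 normalized reads in stroke and 719 and 525 in sham (0.57, SE 0.27, adjusted p = 0.416). Its stroke values all lay above the sham values. Of the others, Mapk14 had a fold change of -0.05 (SE 0.19) and Mapk11 one of 0.74 (SE 0.47).

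The genes whose pattern over the 5 libraries was nearest to that of Hspb1 were found by the root mean square difference of centred log2(normalized reads + 1), over a pool of 5092 genes whose mean was at least 50. They were Ch25h (0.24), which makes 25-hydroxycholesterol, the small GTPase Gem (0.27), the tubulin isotype Tubb6 (0.28), the lipopolysaccharide coreceptor Cd14 (0.35) and the nuclear IκB protein Bcl3 (0.35). Ch25h had 67.4, 124 and 189 normalized reads in stroke and 22.2 and 30.0 in sham. Tubb6 had 61.4, 172 and 193 in stroke and 30.7 and 16.4 in sham. In each of these 5 genes, as in Hspb1, stroke library A had the lowest stroke value and library C the highest, and the groups did not overlap. The likeness uses the same 5 libraries as the fold change, so the shared order, the lack of overlap and the positive fold changes of these genes follow from the choice.

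Cryab encodes alpha-B crystallin, a chaperone of glia, muscle and lens. Cryab (ENSMUSG00000032060) lies at chr9:50751325-50756636, plus strand, with 1479 exonic bases. It had 1168, 1461 and 985 normalized reads in stroke (mean 1204 ± 241, SD, n = 3) and 1645 and 676 in the deeper and the shallower sham library. The deeper sham library held the highest and the shallower the lowest of the 5 values, with all stroke values between them. The log2 fold change was 0.05 (SE 0.39, adjusted p = 0.991), with a 95% interval of -0.71 to 0.81, so changes of up to about that size in either direction were not resolved. The read numbers of Cryab are less secure than those of the other members: among 100 genes with means of 1000 to 1400 whose mean had been shifted on purpose, 7 still gave a set of reads, against 0 of 200 in each lower band up to a mean of 500. Unshifted, 84 of those 100 genes gave 1 set and 16 gave several. For Cryab 1 set lay within rounding, and the nearest other set missed the deposited mean by 1.08 times its rounding error. In that other set (1628, 420 and 2047 reads in stroke, 855 and 1040 in sham) the sham values would not enclose those of stroke, so what follows on single libraries rests on the set used.

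Which sham library was used set the direction for Cryab. In limma fits without the deeper sham library the Cryab log2 fold change was 0.81 (adjusted p = 0.0418), and without the shallower it was -0.47 (adjusted p = 0.282). Of the oligodendrocyte markers, 0 of 8 were called (0 at an unadjusted p under 0.05), with a median of -0.30. The marker with recovered reads, Mog, had 753, 809 and 899 normalized reads in stroke and 1388 and 703 in sham. Mog and Cryab were thus both highest in the deeper sham library and lowest in the shallower. So were the microglial markers C1qa (902, 992 and 924 in stroke, 1013 and 440 in sham) and Tmem119. The other microglial markers with recovered reads, Aif1, Cx3cr1, P2ry12, Csf1r and Itgam, were not. The astrocyte markers with recovered reads, Aldh1l1 and S100b, had the same order as Cryab. The endothelial marker Vwf was not (677, 629 and 1114 in stroke, 456 and 1079 in sham). The share of all genes with this pattern was not counted. The part of oligodendrocyte RNA in the Cryab values was not tested, and in bulk tissue fewer cells of a type and less RNA per cell cannot be told apart.

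Hspb8 encodes a chaperone that works with BAG3 to send damaged proteins, filamin among them, to autophagy. Hspb8 (ENSMUSG00000041548, chr5:116408491-116422864, minus strand, 1950 exonic bases) had 290, 390 and 445 normalized reads in stroke (mean 375 ± 78.4, SD, n = 3) and 460 and 200 in sham. The sham values enclosed the stroke values, as for Cryab. The log2 fold change was 0.18 (SE 0.40, adjusted p = 0.963, 95% interval -0.61 to 0.97). It was 0.88 in the limma fit without the deeper sham library and -0.32 without the shallower, neither past the threshold.

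Of the partners of HSPB8 in this pathway, 1 of 8 was called higher and 0 lower, with a median of 0.46. The unadjusted p was under 0.05 for 4, all higher. The called gene was Flnc, which encodes filamin C, an actin cross-linker of muscle that BAG3 complexes clear and that HSPB7 binds. It had 192, 280 and 379 normalized reads in stroke and 105 and 91.3 in sham (1.53, SE 0.38, adjusted p = 0.0103). The groups did not overlap, and the stroke libraries had the same order as for Hspb1. Bag3 had 352, 583 and 469 in stroke and 342 and 125 in sham (1.00, SE 0.44, adjusted p = 0.345). Its lowest stroke value was close to the higher sham value. The autophagy receptor Sqstm1 had a fold change of 0.17 (SE 0.19), and Synpo one of 0.55 (SE 0.26), neither called. Synpo2, which encodes another partner of BAG3, was the list's only gene with a negative value (-1.01, SE 0.53, adjusted p = 0.498). It had 411, 213 and 193 normalized reads in stroke and 839 and 255 in sham, with overlap between the groups.

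Hspb6 encodes HSP20, a chaperone of smooth and cardiac muscle that regulates relaxation. Hspb6 (ENSMUSG00000036854, chr7:30552178-30555443, plus strand, 2299 exonic bases) had 137, 147 and 193 normalized reads in stroke (mean 159 ± 30.0, SD, n = 3) and 258 and 159 in sham. The shallower sham value lay within the stroke range and the deeper above it. The log2 fold change was -0.39 (SE 0.36, adjusted p = 0.846, 95% interval -1.10 to 0.31). In the limma fits it was -0.02 without the deeper sham library and -0.71 without the shallower (adjusted p = 0.972 and 0.213). Its exons overlap those of Proser3 on the opposite strand by 122 bases, and those of Lin37 by 3.

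Smooth muscle markers did not share the negative fold change of Hspb6. Of 8 markers of mural cells and smooth muscle, 3 were called higher, Acta2 (1.32), Tagln (1.38) and Myl9 (1.04), and 0 lower, and the median was 1.09. The unadjusted p was under 0.05 for 4, all higher. Over the 7 markers with recovered reads, the summed level lay between 2176 and 2230 in the stroke libraries, and the sham libraries had 1177 (deeper) and 1506 (shallower). No marker of this list was at 0. These sums leave out Rgs5, the marker of this list with the highest mean (2673), which had no recovered reads. They include Pdgfrb, with 678, 610 and 752 normalized reads in stroke and 640 and 674 in sham. The part of mural cells in the Hspb1 and Flnc values was not tested.

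The muscle members Hspb2, Hspb3 and Hspb7 were present at low levels. Hspb3, whose protein pairs with HSPB2 in muscle, is a gene of 1 exon (ENSMUSG00000051456, chr13:113662896-113663676, minus strand, 781 bases). It had 51.0, 43.3 and 37.6 normalized reads in stroke (mean 44.0 ± 6.71, SD, n = 3) and 23.3 and 23.2 in sham. The groups did not overlap and the sham values were nearly equal, with 17 to 59 reads per library, and Hspb3 was not called (0.92, SE 0.54, adjusted p = 0.595, 95% interval -0.14 to 1.98).

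Hspb7, a heart and muscle member (ENSMUSG00000006221, chr4:141420779-141425311, plus strand, 2769 exonic bases), had 12.1, 23.9 and 26.9 normalized reads in stroke (mean 20.9 ± 7.81, SD, n = 3) and 9.53 and 1.36 in sham. The shallower sham value stands for 1 read. The lowest stroke value, again in library A, was close to that of the deeper sham library. The fold change of 1.90 had an SE of 1.02 and an adjusted p of 0.522 (95% interval -0.10 to 3.90). In the limma fit without the deeper sham library it was 3.14 (adjusted p = 0.0125), with the remaining sham library at that 1 read. Without the shallower it was 0.99 (adjusted p = 0.363), and without any 1 stroke library the adjusted p was 0.810 or above.

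Hspb2 (ENSMUSG00000038086, chr9:50751078-50752354, minus strand, 834 exonic bases) had 12.1, 11.5 and 9.85 normalized reads in stroke (mean 11.1 ± 1.16, SD, n = 3) and 9.53 and 4.09 in sham. It had 3 to 14 reads per library and was not called, with a wide interval (0.69, SE 1.00, adjusted p = 0.934, 95% interval -1.27 to 2.65). In the limma fits it was 1.25 without the deeper sham library and 0.20 without the shallower (adjusted p = 0.161 and 0.856). Of 8 striated muscle markers, 4 were abundant enough to be tested and 0 were called (1 at an unadjusted p under 0.05), while Ckm, Tnnt3, Mb and Actc1 had deposited means of 1.85, 2.78, 2.60 and 0.354. The tested markers were Acta1 (mean 169), Myh1 (17.4), Myh4 (15.9) and Mylpf (12.2). Acta1 had 235, 202 and 180 normalized reads in stroke and 147 and 81.8 in sham, with no overlap, and was not called (0.84, SE 0.37, adjusted p = 0.341). The part of muscle tissue in the values of Hspb2, Hspb3 and Hspb7 was not tested.

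Hspb2 and Cryab are neighbours that face each other's strand on chromosome 9. Their annotated spans overlap by 1030 bases and their exons by 252. The libraries were made with a stranded kit, but the sources used here do not give the strand setting of the counting, and without strand the reads of this overlap cannot be told apart. The level of Cryab was far above that of Hspb2 in all 5 libraries. The next genes on either side, 2310030G06Rik (-0.50, SE 0.44, adjusted p = 0.837) and 1110032A03Rik (-0.34, SE 0.21, adjusted p = 0.649), were not called.

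**Figure D3:**
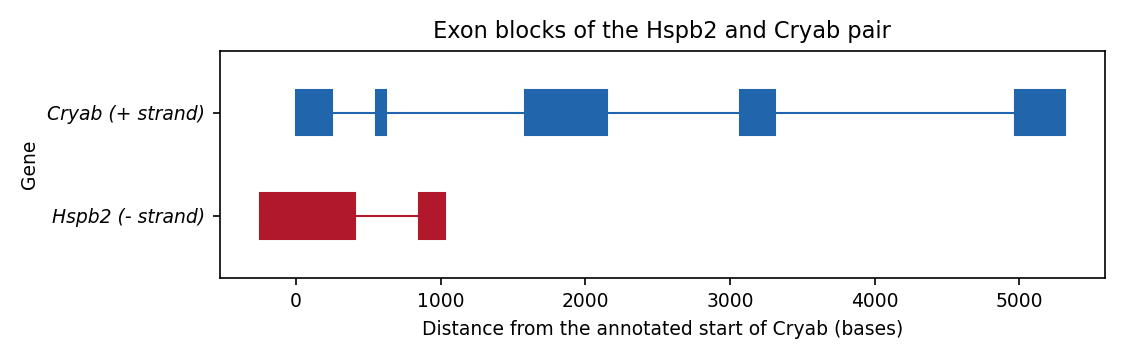
Exon blocks of Hspb2 (minus strand) and Cryab (plus strand), drawn to scale by distance in bases from the annotated start of Cryab. The exons of the 2 genes overlap by 252 bases.

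Hspb11 is the member apart: its protein, also known as IFT25, pairs with IFT27 in the intraflagellar transport complex B of cilia. Hspb11 (ENSMUSG00000063172, chr4:107253593-107279938, plus strand, 2071 exonic bases) had 89.9, 98.1 and 104 normalized reads in stroke (mean 97.3 ± 7.05, SD, n = 3) and 117 and 149 in sham. All stroke values lay below both sham values, and it was not called (-0.45, SE 0.34, adjusted p = 0.768, 95% interval -1.11 to 0.22). In the limma fits it was -0.61 without the deeper sham library and -0.27 without the shallower (adjusted p = 0.151 and 0.629). It was the only member with a lower value in the deeper than in the shallower sham library. Of 1684 genes whose mean lay within 1.5-fold of that of Hspb11, 30.1% had a lower ratio of deeper to shallower.

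Of 16 tested genes of complex B, 2 had a positive fold change, against 8224 of all 17420 genes tested, with a median of -0.23, and 0 were called in either direction (1 at an unadjusted p under 0.05, lower). That gene was Ift27, the partner of IFT25, with 254, 265 and 276 normalized reads in stroke and 455 and 352 in sham (-0.61, SE 0.26, adjusted p = 0.297). As for Hspb11, its groups did not overlap, which in this direction was so for 4 of the 16 genes and for 15.3% of all genes with recovered reads. Markers of choroid plexus and ependyma, whose cells carry cilia, included 2 of 8 called lower, Ttr (-8.27, SE 1.80) and Folr1 (-4.05, SE 1.13). The unadjusted p was under 0.05 for 3, all lower. The ependymal marker Foxj1 was not called (-0.80, SE 0.56). Ttr had no recovered reads, and the sum over the other 7 genes was highest in the deeper sham library. Folr1 had 3.46, 3.54 and 3.58 normalized reads in stroke, and the sham libraries had 111 (deeper) and 5.45 (shallower), so 1 sham value was close to those of stroke. Its fold change without the deeper sham library is not given here. Hspb11 was higher in the shallower. The part of ciliated cells in these values was not tested.

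Levels per exonic length place the members in order. In normalized reads per 1000 exonic bases, Cryab was the highest in stroke (814 ± 163, SD, n = 3), followed by Hspb1 (237 ± 102), Hspb8 (192 ± 40.2), Hspb6 (69.3 ± 13.1), Hspb3 (56.3 ± 8.59), Hspb11 (47.0 ± 3.40), Hspb2 (13.4 ± 1.39) and Hspb7 (7.57 ± 2.82). The stroke values of Hspb1 and Hspb8 overlapped, as did those of Hspb6 and Hspb3 and of Hspb3 and Hspb11, so these neighbours in the order were not separated. In sham, Hspb1 had 40.0 and 38.3 per 1000 bases, below Hspb8 (236 and 103), Hspb6 (112 and 69.3) and Hspb11 (56.7 and 71.7), and above Hspb3 (29.8 and 29.7). In stroke, Hspb1 was above Hspb6, Hspb11 and Hspb3 in each of the 3 libraries.

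Within the family, Hspb1 supplied 6.77%, 11.2% and 15.6% of the family's normalized reads in stroke libraries A, B and C, and 1.61% and 3.16% in the deeper and the shallower sham library. Cryab supplied 61.8%, 59.7% and 46.1% in stroke and 64.1% and 54.0% in sham. The family sum was 1889, 2448 and 2134 normalized reads in stroke and 2565 and 1252 in sham, so the sum overlapped between the groups while the share of Hspb1 did not.

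Cytoskeletal partners and the remaining cell type markers held no called gene. Of 8 intermediate filament genes, which small heat shock proteins bind, 0 were called (3 at an unadjusted p under 0.05, all higher), with a median of 0.28. Among them Gfap, the filament of reactive astrocytes, had a fold change of 0.18 with an SE of 0.88, and the neurofilaments Nefl and Nefm had 0.13 (SE 0.24) and 0.26 (SE 0.29). No gene was called among the markers of neurons (median 0.22), astrocytes (-0.11), microglia (0.45), endothelium (0.34), leukocytes (0.42, 4 of 8 tested) and meninges (-0.21). At an unadjusted p under 0.05 the numbers were 1, 0, 2, 2, 0 and 0 in that order, all higher.

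**Figure D4:**
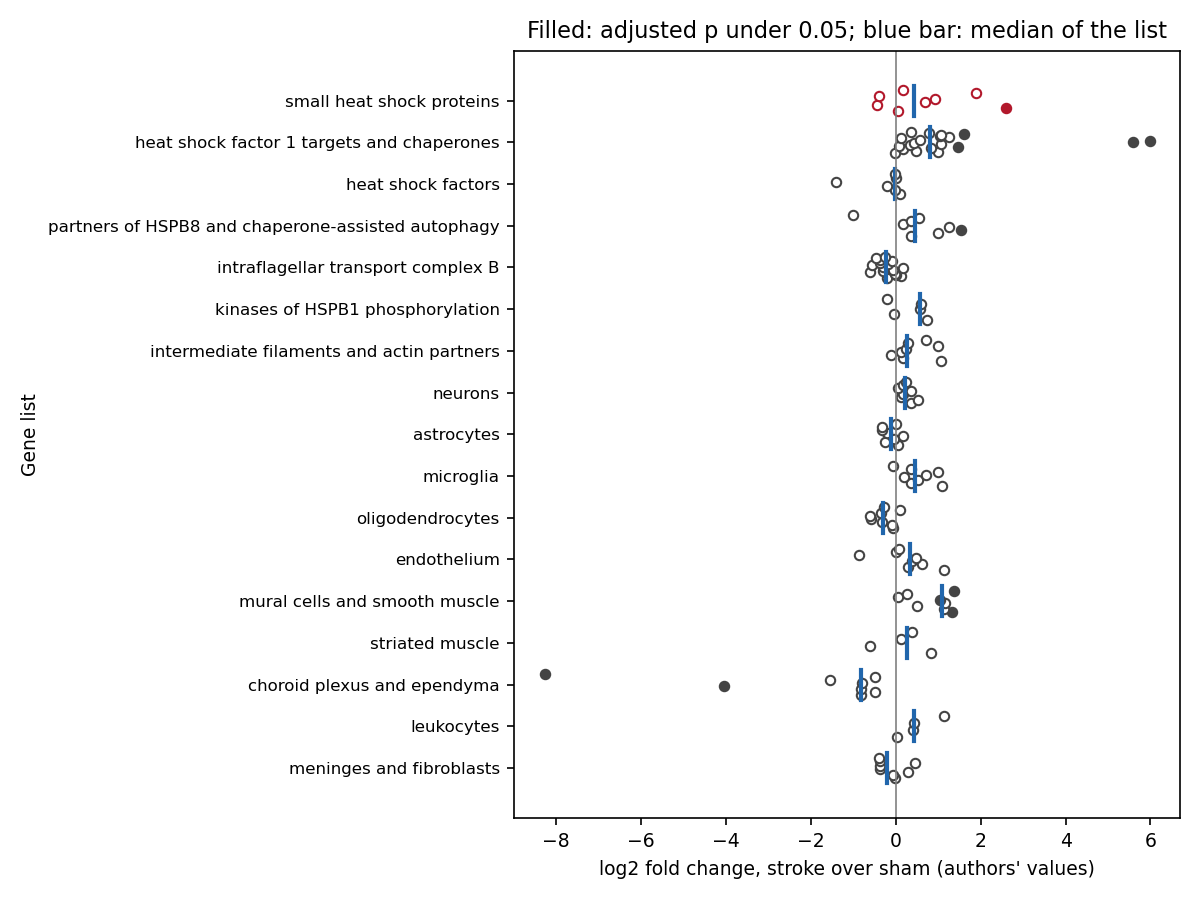
Log2 fold changes of stroke over sham from the authors' deposited table for each gene of the lists, filled where the adjusted p was under 0.05, with a bar at the list's median. The HSF1 target list has 4 filled points and the mural list 3, all higher, and the choroid plexus list has 2, both lower.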

How the data were processed

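The 5 libraries (2 sham, 3 stroke) were made from TRIzol-extracted RNA with a KAPA stranded mRNA-seq kit, per the labels' protocols. DESeq2 1.14.1, featureCounts 1.5.1, STAR 2.5.2b and FastQC are named, with build GRCm38, in the submitters' processing notes. The sources used here do not give the annotation release or how multiply aligned reads were treated. The authors deposited, per the file headers, 1 row per gene of a DESeq2 results table: a signal (the mean of counts divided by size factors), a log2 fold change, its standard error on the log2 scale, a Wald score, and a p-value with its adjusted p-value (17420 of 51912 genes, lowest mean 9.19).

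The numerator is not stated. Genes with 1 read in 1 library gave 5 values of the mean, 3 with positive fold changes, read as the 3 stroke libraries. These values gave the size factors. Sets of 5 whole numbers were then searched (numba 0.67.0, numpy 2.4.6, Python 3.11.15) that alone give the deposited mean, fold change and standard error within rounding. Reads were recovered for 9743 of 9778 genes tried, and 9713 of these had a mean of up to 500. On simulated data for stroke against sham, reads were recovered for 200 of 200 genes. These were drawn from genes already recovered, with values made by the same repeated fit. They could not show whether that fit matches the one the authors ran, and say little on genes at the level of Cryab. Total depth is unknown. Genes above a mean of 500 were tried only if listed.

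The authors' tests served as the main result, since the file holds no counts per library. limma 3.58.1 (R 4.3.3; trend, robust) on log2(normalized reads + 1), over all recovered genes, was the alternative. On simulated counts for the same 9743 genes it called 62.5% of 200 genes changed 4-fold and 0.105% of the unchanged. Apart from that change, the simulated libraries shared 1 mean per gene. Differences such as those between the 2 sham libraries were thus not simulated, and the share called in the real data may differ. Intervals of 95% are from the deposited standard errors. An exact permutation test of 3 against 2 libraries cannot go below 0.1 and was not used. Exons and positions are from GENCODE M21, which may differ from the release the authors counted on.

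The members and the 17 lists were chosen with earlier results of these data known. Named are every member, called genes and up to 3 uncalled genes of highest mean per list, neighbours of Hspb2 and Cryab, and the 5 genes nearest to each called member. Bag3, Synpo2, Hspe1, Mapkapk2, Ift27, Mog, Proser3, Lin37, Mapk11, the untested alpha-crystallin and muscle genes and Atf3 were named after their values were seen. So were Aif1, Cx3cr1, P2ry12, Itgam, Tmem119, Aldh1l1, S100b and Hspd1.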

Additional observations from a re-analysis of the deposited data

How the results depend on the processing

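Hspb1 stayed past the threshold when p-values were adjusted over every gene, over genes of at least 5 CPM or against a 1.5-fold change. It kept its direction in all 12 alternatives. Those that only adjust p anew hold the deposited fold change, so the direction could not change there. The limma fits use reads recovered from that same fold change, so they are not independent of it. In limma it had 2.46 (adjusted p = 0.353), 2.47 with a pseudocount of 0.5 (adjusted p = 0.366), 2.46 with a mean of at least 10 (adjusted p = 0.333) and 2.54 with TMM factors (adjusted p = 0.324), and in these 4 fits 0 members were called, with 3 at an unadjusted p under 0.05 in each, where 774, 779, 760 and 815 of all genes fitted were under it in that order. Leaving out 1 library at a time, Hspb1 ranged from 2.18 to 2.87 (adjusted p 0.0179 to 1.00), and the count of members called from 0 to 3, the 3 without the deeper sham library, where the lone sham library is assumed to vary like the stroke libraries and 689 genes were called higher and 1072 lower. Leaving out 1 library at a time, Cryab ranged from -0.47 to 0.81 and Hspb8 from -0.32 to 0.88, both reversed without the shallower sham library. Against a 1.5-fold change, 2 HSF1 targets, 0 partners of HSPB8 and 0 mural markers stayed called. With p-values adjusted over every gene, over genes of at least 5 CPM or against a 1.5-fold change, 1 choroid plexus marker stayed called. The causes were not tested. No paired analysis was possible because the deposited columns carry no replicate numbers. The planned edgeR fit was not run, since the file used here holds no column of counts. Hspb2, Hspb3 and Hspb7 had 1 to 59 reads per library; the part of depth in their missing calls was not tested.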
